A study of Rattus norvegicus with 20 samples.

Results

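Hepatic mRNA of 4 Long-Evans (*Turku/AB*) (L-E) and 4 Sprague-Dawley (S-D) rats was compared across 15923 ProbeSets of the Affymetrix RAE230A array, with 1 rat per array. These 8 arrays were chosen by their titles from a series of 20, which also holds 4 arrays each of Han/Wistar (*Kuopio*) (H/W), Line-A and Line-C. All livers came from males aged 10 to 12 weeks from the breeding colonies in Kuopio, kept and fed alike, and were taken in the morning, 19 h after a gavage of corn oil, and the titles of the S-D arrays call this treatment "control". L-E was in-bred and S-D out-bred, and both carried the wild-type *Ahr*, the receptor for dioxins, as did Line-C, while H/W and Line-A carried the mutant allele. Line-A and Line-C descend from L-E×H/W crosses.

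A ProbeSet is a group of short oligonucleotides that reads 1 transcript, and its signal is given as log2 GC-RMA, so that a difference of 1 is a 2-fold change. A mean signal of at least 4 over the 20 arrays was taken as expressed, and 7168 ProbeSets met it. Differences are given as L-E minus S-D with the standard error of limma's fit, and a ProbeSet was called at a false discovery rate (FDR) of 1% after Benjamini-Hochberg adjustment over all ProbeSets. Every adjusted p below is from this fit, and a named gene kept its call without any 1 of the 8 arrays and with scan day as a random block unless stated. Where 1 strain lay under the limit of 4, the fold change is given as a lower bound against that limit.

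The liver is built mainly of hepatocytes, which make most plasma proteins, burn and store fat, and clear drugs through oxidation by cytochrome P450 enzymes and conjugation by transferases. Kupffer cells (resident macrophages), sinusoidal endothelial cells, stellate cells and bile duct cells fill the space between them. In fasting, hepatocytes take fatty acids into mitochondria and peroxisomes for oxidation under the control of PPARα, a nuclear receptor encoded by *Ppara*.

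S-D arrays were all scanned on 1 day by 1 operator and shared a chip lot, and no array of another strain was scanned on that day. L-E replicate 1 was scanned on a different day from L-E replicates 2, 3 and 4. Strain therefore cannot be told apart from scan day, lot and operator, and no value within 1 day could be had. Array medians were close, 3.49 to 3.54 over the 8 arrays. The log2 ratio of 3' to 5' control ProbeSets was higher in S-D for GAPDH, at 0.56 ± 0.02 against 0.28 ± 0.04 (SD, n = 4 each, two-sided exact permutation p = 0.0286, adjusted p = 0.0429 over 3 controls). For β-actin it was 2.02 ± 0.08 in S-D and 1.79 ± 0.10 in L-E, with the same p-values. The part of these control ratios in the differences below was not tested. *Alb*, the gene of serum albumin, had a signal of 16.58 ± 0.06 in L-E and 16.67 ± 0.03 in S-D (SD, n = 4). The mean over 18 hepatocyte markers lay at 13.79 to 13.92 in L-E and 13.69 to 13.79 in S-D. Over 15 expressed markers of pericentral hepatocytes, those around the central veins, it lay at 10.53 to 10.80 in L-E and 10.16 to 10.32 in S-D. Over 17 expressed markers of periportal hepatocytes it lay at 11.72 to 12.23 and 11.56 to 11.66, so that the list means were higher in L-E. Single markers went both ways. Of 20 measured pericentral markers 11 differences were above 0 and 9 below (median 0.02). Of 18 measured periportal markers 11 were above and 7 below (median 0.14). Lists of T and NK cell genes and of genes of pancreas, adipose and muscle stayed at means of 2.86 to 3.09, under the limit of expression.

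At 1% FDR, 807 of 15923 ProbeSets (5.07%) differed between L-E and S-D. Of these 320 (2.01%) were higher and 487 (3.06%) lower in L-E, so that 60.3% of the calls were lower in L-E. The difference reached 2-fold in 275 ProbeSets, 102 higher and 173 lower, and 4-fold in 65, 21 higher and 44 lower. All 4 rats of one strain lay beyond all 4 of the other in 789 of the 807, against 2676 (16.8%) of all ProbeSets. Among the 7168 expressed ProbeSets, 710 (9.91%) were called. The share called grew with signal, from 1.11% under 4 to 7.84% at 4 to 8, 12.4% at 8 to 12 and 19.2% above 12. Below 8 the calls were mostly lower in L-E (232 lower and 115 higher at 4 to 8), whereas above 12 they were 35 higher and 28 lower. On the level of genes, each represented by its ProbeSet of highest mean signal, 576 of 10412 (5.53%) were called, 220 (2.11%) higher and 356 (3.42%) lower in L-E, and the median difference over all genes was 0.002. The counts of the gene lists below stand against these shares of 2.11% and 3.42%, and calls were more frequent among bright ProbeSets. Scan day fitted as a random block left 338 ProbeSets called, all of them among the 807, and a fit on the 8 arrays alone called 448, of which 339 were among the 807.

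**Figure D1:**
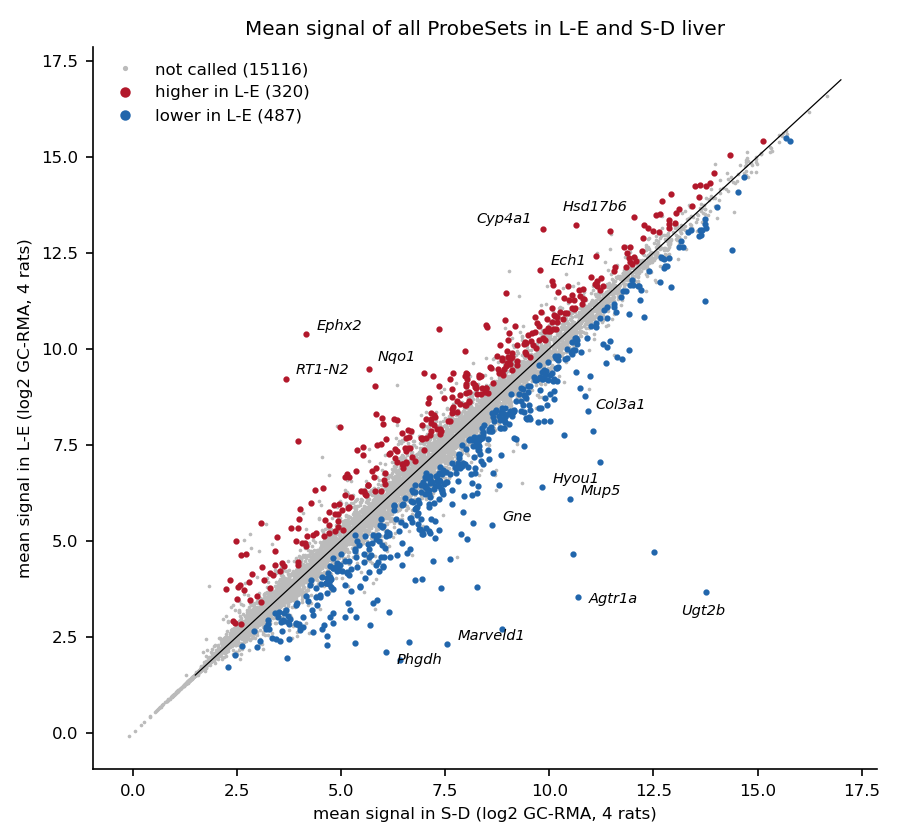
Mean signal (log2 GC-RMA) of each of 15923 ProbeSets in 4 S-D rats (x axis) and 4 L-E rats (y axis), with the line of equal signal; red and blue points are the 320 ProbeSets called higher and the 487 called lower in L-E. The blue points reach farther from the line than the red, with *Ugt2b* and *Agtr1a* near the foot of the plot at L-E signals of 3.66 and 3.54.

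Among called genes, the 15 with the largest positive differences whose strains did not overlap were *Ephx2*, *RT1-N2*, *Nqo1*, *Olr59*, *Cyp4a1*, *Inmt*, *RT1-CE12*, *RT1-Bb*, *Hsd17b6*, *Slc26a8*, *Aldh1a1*, *Tmem150c*, *Ncald*, *Ech1* and *Hsd17b7*. They include enzymes of epoxide, quinone, aldehyde, steroid and fatty acid metabolism and 3 genes of the major histocompatibility complex (MHC), which presents peptides to T cells.

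*Ephx2* encodes soluble epoxide hydrolase, which opens epoxides of fatty acids. Its signal was 10.67, 11.02, 10.02 and 9.81 in L-E replicates 1 to 4 and 4.47, 4.47, 3.46 and 4.25 in the S-D replicates. The strains lay far apart, with L-E higher by 6.22 ± 0.23 (SE, adjusted p = 2.12e-11), or 74.5-fold. In H/W, Line-A and Line-C the means were 9.19, 9.23 and 9.61, so that S-D alone lay low. *Ephx1*, the microsomal enzyme that opens epoxides of foreign compounds, ran the other way, at 11.33, 11.39, 11.80 and 11.90 in L-E and 12.95, 13.30, 12.60 and 12.84 in S-D, a difference of -1.32 ± 0.23 (adjusted p = 0.00104, and 0.0117 with scan day as a random block).

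*Nqo1*, a quinone reductase and a well-known target of both AHR and NRF2, read 9.66, 9.95, 9.49 and 8.76 in L-E. In S-D it read 8.35, 5.05, 4.25 and 5.05. Replicate 1 of S-D thus approached the lowest L-E rat while the other 3 lay far below, and the difference was 3.79 ± 0.70 (adjusted p = 0.00187, 0.0231 with scan day as a random block). H/W was low as well (5.46), whereas Line-A and Line-C stood at 8.76 and 8.81.

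*Aldh1a1*, which makes retinoic acid from retinal, was 5.63-fold higher in L-E (adjusted p = 0.00348), and *Inmt*, an indolethylamine methyltransferase, 9.31-fold (adjusted p = 0.00393). The spread within S-D was wide for *Inmt*, from 4.13 to 7.68. *Aldh1a1* lost its call without S-D replicate 3 or L-E replicate 1 or 2, with an adjusted p of up to 0.0141. *Inmt* lost it without S-D replicate 1, 2 or 4 or L-E replicate 1 or 4, with up to 0.0155, and both lost it with scan day as a random block (adjusted p = 0.0336 and 0.0328).

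*Hsd17b6*, a hydroxysteroid and retinol dehydrogenase, lay at 12.96 to 13.43 in L-E. S-D rats lay at 10.33 to 10.88, a difference of 2.58 ± 0.17 (adjusted p = 4.01e-08). *Hsd17b7*, an enzyme of the later steps of cholesterol synthesis, was higher in L-E by 2.21 ± 0.35 (adjusted p = 0.000566). *Tmem150c*, a membrane protein gene, was 5.44-fold higher in L-E (adjusted p = 1.67e-06), and H/W, Line-A and Line-C lay at 5.58 to 6.14, beside the S-D mean of 5.85 and not the L-E mean of 8.29. *Olr59*, named as an olfactory receptor, was at least 12.1-fold higher in L-E (7.60 ± 0.40 against 3.96 ± 0.72, SD, n = 4, adjusted p = 1.00e-05). *Slc26a8*, an anion transporter, was at least 1.99-fold higher (4.99 ± 1.02 against 2.47 ± 0.24, adjusted p = 0.00344), and *Ncald*, a calcium sensor, at least 2.77-fold (5.47 ± 0.62 against 3.07 ± 0.47, adjusted p = 0.00297). *Slc26a8* lost its call without S-D replicate 2 or 4 or L-E replicate 1 or 2 (adjusted p up to 0.0143), and *Ncald* without S-D replicate 1 or 4 or L-E replicate 1 or 2 (up to 0.0124), and both lost it with scan day as a random block (0.0280 and 0.0240).

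The 15 largest negative differences among called genes without overlap were those of *Ugt2b*, *Agtr1a*, *Marveld1*, *Ythdf2*, *Mup5*, *Phgdh*, *Ddx6*, *Hyou1*, *Gne*, *Col14a1*, *Psat1*, *Slc6a6*, *A2m*, *Rab14* and *Col1a1*. *Ugt2b* belongs to the UDP-glucuronosyltransferases, which attach glucuronic acid to steroids and drugs. It read 3.70, 3.62, 3.68 and 3.64 in L-E and 13.83, 13.74, 13.72 and 13.75 in S-D. No other named gene differed as much (-10.10 ± 0.14, adjusted p = 9.43e-18), and S-D exceeded L-E at least 868-fold. A further ProbeSet of the gene differed by -5.92 ± 0.11 (adjusted p = 4.44e-16). H/W was as low as L-E (3.64), while Line-A and Line-C, which descend from both, lay at 13.52 and 13.55, close to S-D.

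*Agtr1a*, the type 1 angiotensin II receptor, read 4.07, 3.47, 3.50 and 3.12 in L-E. In S-D it read 10.73, 10.76, 10.59 and 10.71, at least 104-fold higher (adjusted p = 5.23e-15), and its other ProbeSet differed by -6.16 ± 0.11. *Marveld1*, a membrane protein gene, lay at 2.29 to 2.30 in L-E and 7.15 to 7.90 in S-D (adjusted p = 6.16e-07). For both genes Line-C was as low as L-E (3.91 and 2.53) and H/W and Line-A were high. *Gne*, the key enzyme of sialic acid synthesis, differed by -3.24 ± 0.20 (adjusted p = 1.87e-08), and here L-E shared its low level with both lines.

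Runs of called genes next to each other were few. With expressed genes sorted by position in RefSeq GRCr8, 6 runs of at least 3 called neighbours were found, holding 20 genes. The longest held 5 genes on chromosome 14, *Sult1e1*, *Sult1b1*, *Ugt2b*, *Ugt2b15* and *Ugt2b35*, with differences of 0.49, -0.92, -10.10, -0.68 and -0.61. On chromosome 5 *Obp3*, *Mup5* and *Slc31a2* were all lower, and on chromosome 20 *RT1-Db1*, *RT1-Ba* and *RT1-Bb* of MHC class II formed a run. The other runs were on chromosomes 6, 11 and 13.

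The *Ugt2b* genes of this run show how unlike the sizes of neighbouring differences were. *Ugt2b15* lay at 12.04 to 12.21 in L-E and 12.64 to 13.03 in S-D and *Ugt2b35* at 13.09 to 13.19 and 13.61 to 13.91 (adjusted p = 0.00369 and 1.27e-05), beside the step of *Ugt2b* from 3.66 to 13.76. Such family members are alike in sequence and signal could be shared between their ProbeSets. *Ugt2b15* lost its call without S-D replicate 1 or 2 or L-E replicate 1, 3 or 4 (adjusted p up to 0.0155) and with scan day as a random block (0.0399). Their promoters are shown as the 250 bases before each annotated start in RefSeq GRCr8, all on the plus strand, with capitals for the stretches of at least 10 bases that all 3 share. They come from the reference genome and not from either strain, at chr14:20985199-20985448, chr14:21122616-21122865 and chr14:21208191-21208440.
Ugt2b: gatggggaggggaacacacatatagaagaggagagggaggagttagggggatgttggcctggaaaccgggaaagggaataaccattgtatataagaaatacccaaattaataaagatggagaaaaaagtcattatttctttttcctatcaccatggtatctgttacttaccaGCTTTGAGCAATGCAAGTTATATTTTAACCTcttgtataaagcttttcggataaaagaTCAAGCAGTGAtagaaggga
Ugt2b15: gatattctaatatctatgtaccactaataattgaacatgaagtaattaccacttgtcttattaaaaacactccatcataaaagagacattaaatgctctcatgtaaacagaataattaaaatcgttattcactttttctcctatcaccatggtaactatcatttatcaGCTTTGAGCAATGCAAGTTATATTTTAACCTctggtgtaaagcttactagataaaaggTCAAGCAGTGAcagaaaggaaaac
Ugt2b35: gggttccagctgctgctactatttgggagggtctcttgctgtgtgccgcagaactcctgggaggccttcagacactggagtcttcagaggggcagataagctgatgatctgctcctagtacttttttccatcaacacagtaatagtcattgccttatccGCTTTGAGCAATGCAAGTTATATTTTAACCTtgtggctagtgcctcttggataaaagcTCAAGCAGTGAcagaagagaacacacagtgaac

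The longer shared stretch, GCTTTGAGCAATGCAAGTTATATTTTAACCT, has 31 bases and begins 78 bases before the start of *Ugt2b*, 82 before that of *Ugt2b15* and 91 before that of *Ugt2b35*. Among 33469 promoters of the same window, those of 5 genes hold it, and those of 6 genes hold the 11-base stretch TCAAGCAGTGA. Both counts include the 3 genes whose promoters defined the stretches, and *Ugt2b37* of the same family. The letters of the amino acid response element, TGATGNAA, searched on both strands, were in none of the windows of the 5 serine and one-carbon genes called lower that had a promoter in the table, and in 3.4% of all promoters. The letters CAAAGGNCA, part of a PPAR element, were in none of the 11 available windows of the fatty acid oxidation genes called higher and in 1.56% of all. Over the promoters of genes measured the shares were 1.99% and 1.32%, so that finding none was likely in so few windows. These counts describe letters in short windows and say nothing of binding.

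*Slc6a6*, the taurine transporter, read 3.92, 4.15, 5.38 and 6.75 in L-E and 8.19, 7.72, 7.92 and 8.25 in S-D (adjusted p = 0.000971). Its brighter ProbeSet gave -1.98 ± 0.56 and was not called (adjusted p = 0.0337). *Csad*, which makes the precursor of taurine, was also lower in L-E, by a difference of -1.78 ± 0.36 (adjusted p = 0.00404). Its call was lost without S-D replicate 2, 3 or 4 or L-E replicate 1 or 2, with an adjusted p of up to 0.0171, and with scan day as a random block (0.0187).

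*A2m*, a protease inhibitor of the rat acute phase, lay at 3.74 to 4.12 in L-E and spread from 5.12 to 8.27 in S-D (at least 7.74-fold higher in S-D, adjusted p = 0.000441). The acute-phase genes *Crp*, *Hp* and *Fgb* were not called, with differences of 0.06, -0.01 and 0.13 (adjusted p = 0.970, 1 and 0.487), and of 38 acute-phase genes 2 were called higher and 2 lower in L-E.

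**Figure D2:**
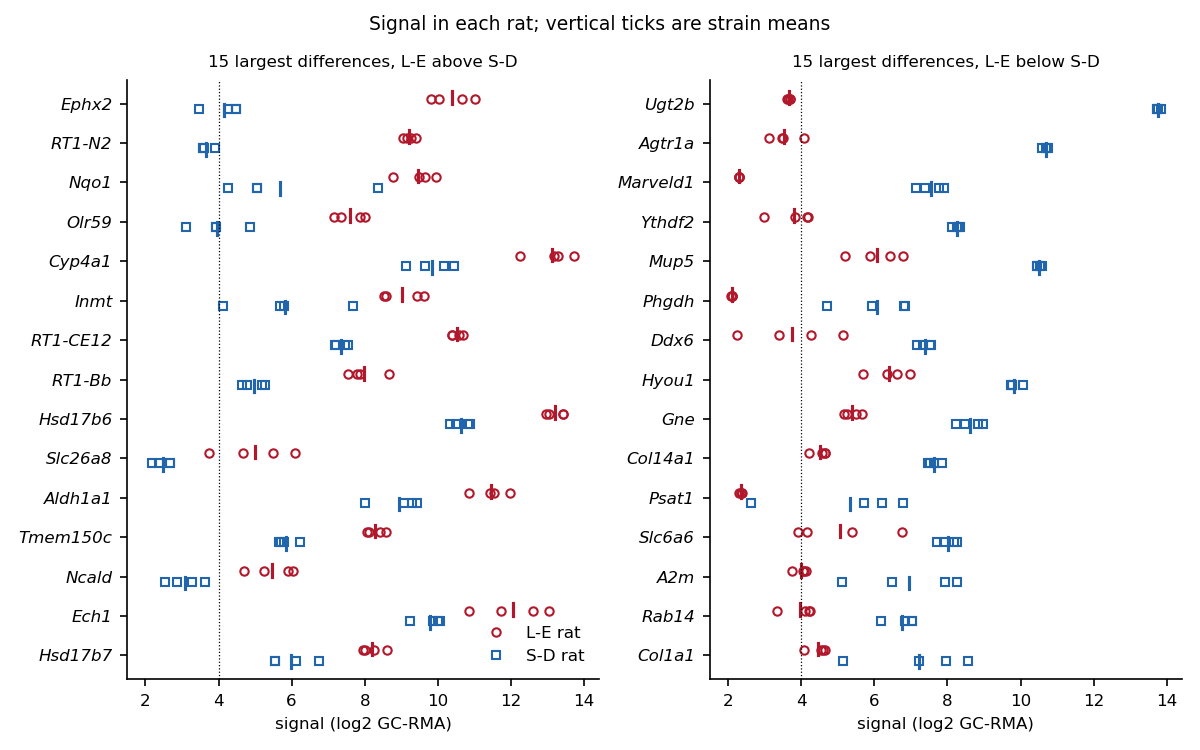
Signal (log2 GC-RMA) of each L-E rat (red circles) and S-D rat (blue squares) for the 15 called genes with the largest positive (left) and negative (right) differences, with strain means as vertical ticks and the limit of expression at 4 as a dotted line. The strains do not overlap for any of the 30 genes, by the rule that chose them, while single S-D rats lie close to L-E for *Nqo1* and *Psat1*.

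Some of the largest calls were not shared by every ProbeSet of a gene. *Ddx6*, an RNA helicase gene, differed by -3.63 on the ProbeSet above (adjusted p = 3.68e-05), yet a brighter one read 8.76 ± 0.14 in L-E and 8.69 ± 0.15 in S-D (SD, n = 4, adjusted p = 1). *Rab14*, a vesicle trafficking gene, gave differences of -2.80, -1.75 and -0.77, all called, and 0.35 on its brightest ProbeSet, which was not (adjusted p = 0.294). The smallest of these calls was lost with scan day as a random block (adjusted p = 0.0117). For *Marveld1*, *Col14a1* and *Col1a1* the other ProbeSet had means under 4 in both strains and was not called (-0.06, -0.22 and -0.42). *Ythdf2*, whose product reads methylated RNA, was lower on both of its ProbeSets (-4.48 and -1.05), as was *Hyou1*, a chaperone gene (-3.43 and -2.89). Of 611 genes with at least 2 expressed ProbeSets, 135 had at least 1 called. In 27 of these all were called in 1 direction, in 108 some were not called, and none had calls in both directions. Within the 108, the differences had 1 sign in 74 genes and both signs in 34. Whether a ProbeSet reads a transcript level or a sequence variant under its oligonucleotides was not tested.

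Of the 807 called ProbeSets, 101 had no single gene symbol in the annotation used here. These had either several symbols or none. Among those with none, the ProbeSets with the largest differences were named after their values were seen. The lowest in L-E, Affymetrix 1370425_at, read 3.53, 4.12, 5.49 and 5.64 in L-E and 12.63, 12.24, 12.65 and 12.51 in S-D (adjusted p = 1.05e-08). The highest, 1369110_x_at, was higher in L-E by 2.39 ± 0.19 (adjusted p = 6.80e-07).

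Fatty acid oxidation was the list with the most calls higher in L-E. Of its 51 measured genes 15 were called higher and 1 (*Echs1*, -0.43) lower, against 2.11% and 3.42% of all genes, and its median difference was 0.33. The list is brighter than the array as a whole, with 44 of the 51 expressed and a median of 10.56 in L-E. Calls were more frequent at such signals, with 140 of 2412 ProbeSets called higher in L-E at 8 to 12. *Cyp4a1*, which starts omega-oxidation of fatty acids and is a classical target of PPARα, read 13.29, 13.73, 13.18 and 12.24 in L-E and 10.45, 9.14, 9.65 and 10.17 in S-D. L-E was thus 9.56-fold higher (3.26 ± 0.56, adjusted p = 0.00109), with H/W, Line-A and Line-C between the strains at 10.99 to 11.18.

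*Ech1*, which shifts double bonds during oxidation, read 12.61, 13.04, 11.73 and 10.85 in L-E and 10.06, 9.23, 9.87 and 10.00 in S-D (adjusted p = 0.00196). *Ehhadh*, the bifunctional enzyme of peroxisomes, read 13.23, 13.69, 12.68 and 12.68 in L-E against 11.50, 11.13, 11.52 and 11.64 in S-D, which is 3.08-fold (adjusted p = 0.000175). *Acot4*, a peroxisomal thioesterase, and *Eci1*, a mitochondrial isomerase, were higher by 1.99 ± 0.33 and 1.69 ± 0.26 (adjusted p = 0.000790 and 0.000414). Their means were 7.37 and 11.75 in L-E and 5.38 and 10.07 in S-D, with H/W above L-E at 8.27 and 11.92. *Pdk4*, a kinase that turns off glucose oxidation, stood at 6.98 to 8.35 in L-E and at or under 6.16 in S-D (adjusted p = 0.00226).

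*Cpt1a*, which lets fatty acids into mitochondria, gave 1.17 ± 0.42 on its brighter ProbeSet, not called (adjusted p = 0.107). The other gave 2.06 ± 0.47 (adjusted p = 0.00896) and lost its call without any one of S-D replicates 1 to 4 or L-E replicates 1 to 3 (adjusted p up to 0.0325) and with scan day as a random block (0.0646). *Ppara* itself read 1.90 to 2.11 in all 8 rats, far under the limit of expression on this array, and gives no measure of the receptor.

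Within L-E replicate 2 was highest in 12 of the 15 genes called higher and lowest in none. The lowest rat was replicate 1 in 4 of them, replicate 3 in 5 and replicate 4 in 6. In S-D replicate 2 was lowest in 12 of 15. For *Cyp4a1*, *Ech1* and *Cpt1a* replicate 4 was the lowest L-E rat, while for *Acot4* it was replicate 3 and for *Pdk4* replicate 1. L-E replicate 4 was highest for *Thrsp* (13.81 against 11.89 to 12.29) and *Fasn* (10.66 against 8.86 to 9.74), genes of fatty acid synthesis, neither of which was called between the strains (adjusted p = 0.0439 and 0.537). The time since the last meal is not in the labels, and its part in these values was not tested.

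The count of 15 fell to 4 with scan day as a random block and to 4 in the 8-array fit, and ranged from 11 to 16 when single L-E or S-D arrays were left out. The 1 lower became 0 with the block and 0 to 2 with an array left out. *Cyp4a1*, *Ech1*, *Acot4* and *Pdk4* lost their calls with the block, with adjusted p-values of 0.0144, 0.0222, 0.0125 and 0.0243.

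Neighbouring pathways gave fewer calls. *Mlxipl*, the gene of the glucose-sensing factor ChREBP, was higher in L-E by 2.07 ± 0.22 (adjusted p = 1.27e-05) and led 6 of 49 genes of fatty acid synthesis and triglycerides called higher, with 1 lower. Those counts were 2 and 0 with scan day as a random block, and 4 to 6 and 0 to 1 with 1 array left out. *Fasn*, *Acaca* and *Scd*, the core enzymes, were not called (0.58, 0.01 and -1.71). Of 71 genes of the respiratory chain and ATP synthase 6 were called higher and 2 lower, and none by more than 0.45 either way, with a median of 0.10. The block left 1 higher and 0 lower, and leaving out 1 array gave 3 to 4 and 0 to 2. Of 52 genes of glycolysis and gluconeogenesis 3 were called higher and 1 lower, or 1 and 1 with the block.

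*Scarb1*, the HDL receptor, and *Apob*, the protein of VLDL and LDL, were higher in L-E by 0.95 ± 0.09 and 0.46 ± 0.04 (adjusted p = 3.81e-06 and 1.25e-06). *Slc27a5*, which activates bile acids for conjugation, was 2.64-fold higher (adjusted p = 1.08e-05). In cholesterol synthesis *Hsd17b7* and *Fdft1* were called higher and *Lss*, lanosterol synthase, lower (-1.46 ± 0.21, adjusted p = 0.000207), while the median over its 21 genes was 0.45. *Fdft1* lost its call without any one of S-D replicates 2, 3 and 4 and L-E replicates 1, 3 and 4 (adjusted p up to 0.0262) and with scan day as a random block (0.0621).

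**Figure D3:**
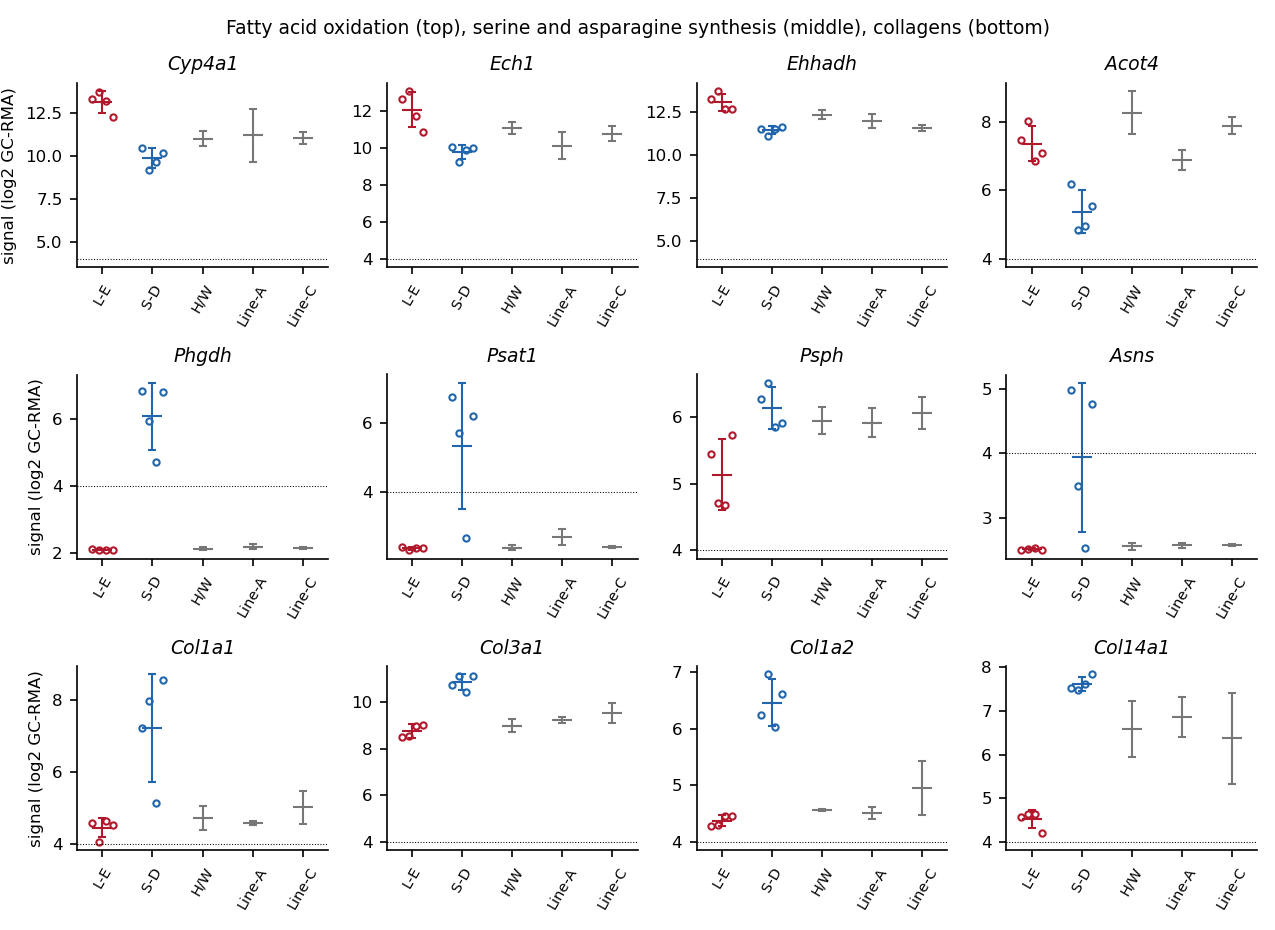
Signal (log2 GC-RMA) of 12 genes in 5 groups, as mean ± SD of 4 rats, with single rats as circles for L-E (red) and S-D (blue) and the limit of expression at 4 as a dotted line. L-E lies highest of the groups for *Cyp4a1*, *Ech1* and *Ehhadh*, while H/W and Line-C lie above it for *Acot4*. S-D lies above the other 4 for *Phgdh*, *Psat1*, *Asns* and the collagens, with a wide spread between its rats for *Psat1*, *Asns* and *Col1a1*.

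Genes of serine synthesis were lower in L-E. *Phgdh*, the first enzyme of the pathway, read 2.12, 2.08, 2.10 and 2.10 in L-E and 6.85, 5.94, 4.71 and 6.81 in S-D, at least 4.22-fold higher there (-3.98 ± 0.31, adjusted p = 3.70e-07). *Psat1*, the second enzyme, read 2.37, 2.29, 2.36 and 2.35 in L-E and 6.78, 5.72, 2.63 and 6.21 in S-D (-2.99 ± 0.57, adjusted p = 0.00238). S-D replicate 3 was lowest for both and, for *Psat1*, lay near the L-E level.

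*Psph*, the last enzyme, was lower by a smaller margin (5.14 ± 0.53 in L-E and 6.14 ± 0.32 in S-D, SD, n = 4, adjusted p = 0.00741) and lost its call without S-D replicate 1, 2 or 4 or L-E replicate 2 or 3 (adjusted p up to 0.0297) and with scan day as a random block (0.0576). The call of *Psat1* was lost without S-D replicate 4 (adjusted p = 0.0105) and with scan day as a random block (0.0257). *Asns*, asparagine synthetase, followed the same rats (4.98, 3.49, 2.54 and 4.77 in S-D and 2.50 to 2.53 in L-E) and was not called (adjusted p = 0.0142). H/W, Line-A and Line-C were at or under 2.66 for *Phgdh*, *Psat1* and *Asns*.

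Over the whole list of 29 serine, glycine and one-carbon genes 6 were called lower and 1 higher in L-E, and the median difference was 0.00. *Agxt2*, which handles glyoxylate and methylated arginines, differed by -1.64 ± 0.21 (adjusted p = 8.57e-05). *Gldc*, of glycine breakdown, was the gene called higher, by 0.77 ± 0.15 (adjusted p = 0.00354), and lost its call without S-D replicate 1 or 4 or L-E replicate 1 or 4 (adjusted p up to 0.0150) and with the block (0.0298). With scan day as a random block 2 were lower and 0 higher, and with 1 array left out 2 to 6 and 0 to 1. *Ddit3*, *Atf3* and *Trib3*, genes of the stress response that also induces serine synthesis, were not called (0.22, -0.07 and 0.29), and of the 37 genes of that list 3 were lower and 0 higher (1 lower with the block, 2 to 5 with 1 array left out).

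Genes of protein folding in the endoplasmic reticulum moved in 1 direction where called. Of 28 measured, 4 were lower in L-E and none higher, against 3.42% and 2.11% of all genes, and 5 of the 28 differences were above 0 (median -0.24). Between 4 and 6 were lower with 1 array left out, and 3 with scan day as a random block. *Hyou1*, a large chaperone, read 5.69, 6.34, 6.97 and 6.61 in L-E and 9.76, 9.75, 10.06 and 9.77 in S-D (adjusted p = 6.79e-07). *Sdf2l1* and *Pdia6* differed by -1.90 ± 0.28 and -0.92 ± 0.11 (adjusted p = 0.000257 and 3.81e-05). *Hspa5* (BiP) and *Hsp90b1*, the main chaperones of this compartment, were not called (-0.19 and -0.08, adjusted p = 0.415 and 1).

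Collagen and matrix genes were lower in L-E in 15 of 61 cases and higher in 2, against 3.42% and 2.11% of all genes. *Col3a1*, a fibrillar collagen, read 8.48, 8.53, 8.98 and 9.03 in L-E and 10.75, 11.14, 10.42 and 11.11 in S-D, 4.28-fold apart (-2.10 ± 0.21, adjusted p = 6.88e-06). *Col1a1* lay at 4.07 to 4.65 in L-E and at 7.22, 7.96, 5.13 and 8.55 in S-D (adjusted p = 0.00147, 0.0167 with scan day as a random block). *Col1a2* and *Col14a1* differed by -2.09 ± 0.20 and -3.10 ± 0.41 (adjusted p = 2.92e-06 and 8.91e-05).

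As with *Psat1*, S-D replicate 3 was the lowest of its strain, in 12 of the 15 genes called lower, and replicates 2 and 4 were highest in 7 each. *Lox*, which cross-links collagen, differed by -2.84 ± 0.95 on its brighter ProbeSet, which was not called (adjusted p = 0.0735), and by -2.72 ± 0.52 on the other, which was (adjusted p = 0.00264). The latter call was lost without S-D replicate 3 or L-E replicate 1 or 2 (adjusted p up to 0.0112) and with scan day as a random block (0.0192). The 15 became 7 with scan day as a random block and 4 in the 8-array fit, and 11 to 15 when 1 array was left out.

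Markers of stellate, Kupffer, endothelial and bile duct cells were called in this direction alone. Fewer cells of a type and less RNA per cell cannot be told apart in these whole livers. Among stellate cell and fibroblast markers 7 of 22 were lower in L-E and 0 higher, among Kupffer cell and macrophage markers 5 of 21, among endothelial markers 5 of 22 and among bile duct markers 3 of 17, again with 0 higher. Over all genes 3.42% were called lower and 2.11% higher. Called or not, the difference was above 0 in 8 stellate, 5 macrophage, 4 endothelial and 8 bile duct markers. It was below 0 in 14, 16, 18 and 9. *Aqp1* was counted in both the endothelial and the bile duct list.

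The mean signal over the 12 expressed endothelial markers lay at 7.09 to 7.12 in L-E and 7.54 to 7.57 in S-D. Over the 14 expressed stellate markers it lay at 5.84 to 6.10 and 6.51 to 7.09. For the 18 expressed macrophage markers the strains overlapped, at 7.30 to 7.80 and 7.66 to 7.93. The 5 expressed bile duct markers overlapped too, at 8.65, 8.68, 8.67 and 7.51 in L-E and 8.45, 8.02, 8.41 and 8.29 in S-D. There L-E replicates 1, 2 and 3 lay above every S-D rat. The stellate list shares its collagens with the matrix list, and *Des* and *Rgs5*, markers of stellate cells and pericytes, read under the limit of expression and were not called (0.01 each). Leaving out 1 array gave 6 to 7 stellate, 5 macrophage, 3 to 4 endothelial and 1 to 2 bile duct markers lower, and scan day as a random block gave 4, 2, 3 and 1.

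*C1qc*, a complement gene of macrophages, was lower in L-E by a difference of -0.86 ± 0.15 (adjusted p = 0.000975), and *Fcgr3a*, an Fc receptor, by -1.25 ± 0.16 (adjusted p = 9.54e-05), whereas the Kupffer cell markers *Clec4f* and *Cd68* were not called (-0.04 and -0.38). *Dnase1l3* and *Lyve1*, of sinusoidal endothelium, differed by -0.42 ± 0.07 and -0.66 ± 0.14 (adjusted p = 0.000422 and 0.00475). *Icam1*, an adhesion molecule, differed by -1.61 ± 0.25 (adjusted p = 0.000391), and *Epcam*, of bile duct epithelium, by -0.95 ± 0.15 (adjusted p = 0.000462). *Pecam1* and *Kdr*, defining markers of endothelium, were not called (-0.13 and -0.29), and the former read under the limit of expression. The call of *Lyve1* was lost without S-D replicate 3 or 4 or L-E replicate 1, 2 or 3 (adjusted p up to 0.0188) and with scan day as a random block (0.0464). *Hbb*, of red cells, gave 1.14 ± 0.34 and was not called (adjusted p = 0.0434). Limma called 0 of 15 erythroid markers, of which 4 had an unadjusted p under 0.05, and 12 of their differences were above 0. The mean over the 6 expressed ones lay at 7.75 to 8.11 in L-E and 7.19 to 7.47 in S-D, so that the strains did not overlap and L-E was the one above. The part of blood in the differences was not tested.

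Annexins were lower in L-E where called. *Anxa2*, a membrane-binding protein, read 5.91, 5.84, 6.17 and 5.95 in L-E and 7.14, 7.33, 6.98 and 7.45 in S-D (adjusted p = 1.80e-06), and 4 of 21 annexins and S100 proteins were called lower, 0 higher (2 lower with scan day as a random block, 2 to 4 with 1 array left out). *Cdkn1a*, the p21 inhibitor of the cell cycle, lay at 6.10 to 6.45 in L-E and 7.72 to 8.65 in S-D, 4.01-fold apart (adjusted p = 6.16e-06). It and *Ccnd1*, cyclin D1, were the 2 genes called of 36 in the cell cycle list, while *Mki67* and *Cdk1*, markers of dividing cells, were under the limit of expression and not called (-0.01 and 0.02). The call of *Ccnd1* (-1.64 ± 0.35, adjusted p = 0.00514) was lost without S-D replicate 1, 2 or 4 or L-E replicate 1 or 2 (adjusted p up to 0.0210) and with scan day as a random block (0.0241).

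**Figure D4:**
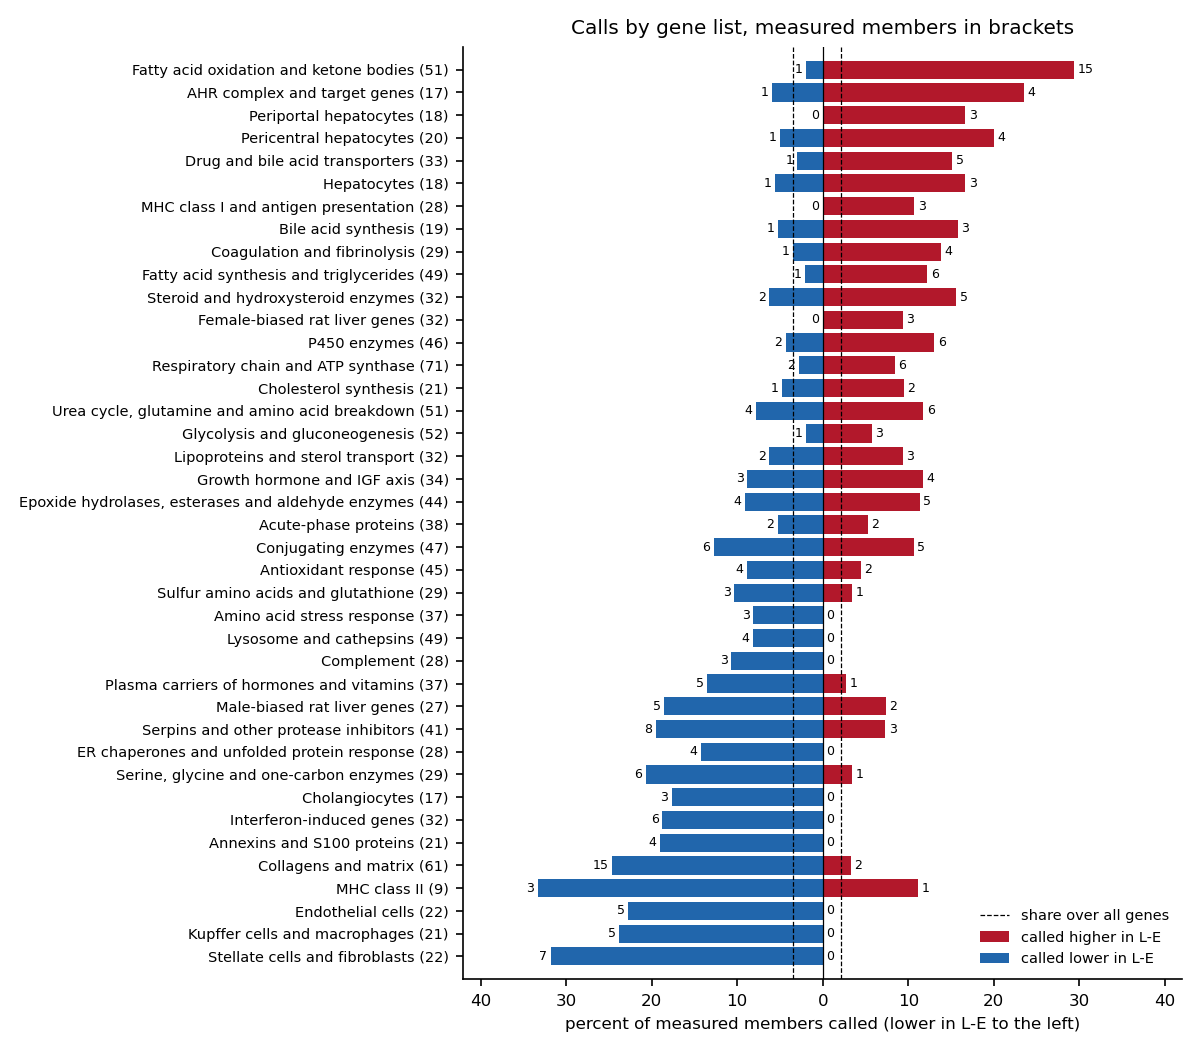
Percent of the measured members of each gene list called higher (red, right) or lower (blue, left) in L-E than in S-D, for the lists with at least 3 calls, with counts beside the bars and dashed lines at the shares over all 10412 genes, 2.11% and 3.42%. Fatty acid oxidation stands at the top with 15 of 51 called higher, and the endothelial, Kupffer and stellate markers lie at the foot with no member called higher.

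Of 32 interferon-induced genes 6 were lower in L-E, against 3.42% of all genes, and 0 higher, with a median of -0.34. The 6 became 2 with scan day as a random block and 4 to 8 with 1 array left out. *Ifi27* and *Ifitm1*, both induced by interferon, differed by -0.65 ± 0.09 and -0.85 ± 0.12 (adjusted p = 0.000132 and 0.000242). *Irf7*, the factor that drives the response, lay at 5.26 to 5.86 in L-E and read 6.42, 7.59, 7.50 and 6.22 in S-D (adjusted p = 0.00552), and lost its call without S-D replicate 2 or 3 or L-E replicate 1, 3 or 4 (adjusted p up to 0.0221) and with scan day as a random block (0.0527).

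In the MHC the direction depended on the gene and on the ProbeSet. Of 28 genes of class I and antigen presentation 3 were called higher in L-E and 0 lower (2 higher with the block), while 11 of the 28 differences were above 0 and their median was -0.04. The class I genes *RT1-N2* and *RT1-CE12* were among the 3. *RT1-N2* read 9.05 to 9.40 in L-E and 3.57 to 3.90 in S-D, at least 37.3-fold apart (means 9.22 and 3.67, adjusted p = 1.48e-05), and *RT1-CE12* read 10.38 to 10.68 and 7.19 to 7.53 (adjusted p = 3.63e-09). *B2m*, the shared light chain, and *Tap1*, the peptide transporter, were not called (-0.18 and -0.33, adjusted p = 0.0327 and 0.0111).

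Of the class II genes *RT1-Db1* and *RT1-Ba* were lower in L-E (-1.63 ± 0.17 and -1.50 ± 0.27, adjusted p = 8.37e-06 and 0.00184) and *RT1-Bb* higher (2.99 ± 0.31, adjusted p = 7.97e-06). Over the 9 genes of the list 1 was higher and 3 were lower, or 1 and 1 with scan day as a random block. The other ProbeSets of *RT1-Ba* and *RT1-Bb* had differences of opposite sign (1.33 and -2.57), were not called (adjusted p = 0.0508 and 0.0881) and split the S-D rats. For *RT1-Bb* the other ProbeSet read 3.24, 8.05, 3.29 and 8.63 in S-D and 3.17 to 3.26 in L-E. For *RT1-Ba* it read 6.15, 7.81, 6.15 and 8.01 in S-D and 8.15 to 8.71 in L-E. S-D replicates 2 and 4 were therefore high on both and replicates 1 and 3 low, and the first *RT1-Ba* ProbeSet showed the reverse order, with 9.70, 8.68, 9.58 and 8.69. MHC genes differ in sequence between strains, so levels from single ProbeSets are uncertain here. *RT1-Ba* lost its call with scan day as a random block (adjusted p = 0.0174).

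Drug-metabolising enzymes moved in both directions. Among 46 P450 genes 6 were called higher and 2 lower in L-E, against 2.11% and 3.42% of all genes. Those counts were 5 and 1 with scan day as a random block, and 6 to 7 and 1 to 4 with 1 array left out. *Cyp2e1*, which oxidises ethanol, read 15.01 to 15.11 in L-E and 14.27 to 14.44 in S-D, 1.65-fold apart (adjusted p = 0.000103). *Cyp1a2*, a target of AHR with high basal levels, was higher by 0.76 ± 0.10 (adjusted p = 8.97e-05). *Cyp2j4* and *Cyp2j3*, which make epoxides of arachidonic acid, were higher by 1.32 ± 0.17 and 0.95 ± 0.14 (adjusted p = 7.30e-05 and 0.000271), while *Cyp4f6*, a fatty acid hydroxylase, differed by -1.41 ± 0.23 (adjusted p = 0.000609). *Cyp2c11*, the main male P450, was not called (-0.32 ± 0.10, adjusted p = 0.0669). *Ahr* lay under the limit of expression in all 8 rats, at 3.04 to 3.24, on its brighter ProbeSet, and the other gave 0.95 and was not called (adjusted p = 0.0773). *Cyp1a1*, the most inducible target of AHR, was not called (0.59 ± 1.10, adjusted p = 1).

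Conjugating enzymes gave 5 genes higher and 6 lower of 47, against 2.11% and 3.42% of all genes. These counts became 2 and 5 with scan day as a random block and 2 to 5 and 5 to 6 with 1 array left out. *Gstt3* was higher by 1.57 ± 0.22 and its family member *Gstt2* lower by a difference of -1.54 ± 0.19 (adjusted p = 0.000191 and 5.21e-05). Both encode theta-class glutathione transferases. *Akr7a3*, an aldehyde reductase that detoxifies aflatoxin, was 5.94-fold lower in L-E (adjusted p = 1.34e-05). Among 33 drug and bile acid transporters 5 were higher and 1 lower, against the same shares over all genes, with *Abcb1a*, the P-glycoprotein pump, at 5.86 to 6.93 in L-E and 4.40 to 4.86 in S-D (adjusted p = 0.000492). Of these transporters 2 were higher and 0 lower with the block, and 3 to 5 and 0 to 1 with 1 array left out.

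Growth hormone sets many of the differences between male and female rat liver. Of 27 male-biased genes 5 were lower in L-E and 2 higher, and of 32 female-biased genes 3 were higher and 0 lower, against 3.42% lower and 2.11% higher over all genes. With scan day as a random block these counts were 3 lower and 1 higher, and 2 higher and 0 lower. With 1 array left out they were 3 to 4 lower and 2 to 3 higher, and 2 to 3 higher and 0 lower. *Mup5*, a male-biased urinary protein gene, read 5.20, 5.87, 6.78 and 6.44 in L-E and 10.54, 10.44, 10.59 and 10.45 in S-D (adjusted p = 2.51e-08). *Obp3*, its neighbour, differed by -1.82 ± 0.21 (adjusted p = 2.46e-05). *Cyp2a1*, which is female-biased, was higher by 1.28 ± 0.15 (adjusted p = 3.88e-05).

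*Igf1*, the growth factor made under growth hormone, was 1.57-fold lower in L-E on 1 ProbeSet (adjusted p = 0.00197) and gave -0.27 ± 0.12 on the other, not called (0.233), and its binding protein gene *Igfbp3* differed by -1.25 ± 0.13 (adjusted p = 6.45e-06). *Igfbp2* ran the other way, at 5.16 to 5.94 in L-E and 3.90 to 4.15 in S-D (adjusted p = 2.63e-05). *Ghr*, the growth hormone receptor, was not called on its brighter ProbeSet (-0.12 ± 0.09, adjusted p = 0.587) and was higher in L-E on the other, at 11.16 to 11.61 against 10.41 to 10.76 (0.86 ± 0.12, adjusted p = 0.00014). *Igf1* lost its call with scan day as a random block (adjusted p = 0.0140).

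Among 41 serpins and other protease inhibitors 8 were lower in L-E and 3 higher, against 3.42% and 2.11% of all genes (6 and 2 with scan day as a random block, 7 to 8 and 2 to 4 with 1 array left out). The lower ones were led after *A2m* by *Slpi*, an inhibitor of leukocyte elastase (-1.93 ± 0.17, adjusted p = 1.69e-06), and *Serpinb6a*, an intracellular serpin (-1.80 ± 0.10, adjusted p = 4.19e-09). Among 37 genes of plasma carriers of hormones and vitamins and their handling 5 were lower and 1 higher (2 and 1 with the block, 4 to 5 and 1 with 1 array left out). *Serpina6*, the corticosteroid carrier of plasma, was the higher one, by 0.96 ± 0.12 (adjusted p = 6.37e-05). *Retsat*, the enzyme retinol saturase, was 4.04-fold lower (adjusted p = 1.59e-07). *Bckdhb*, of branched-chain amino acid breakdown, read 9.10 to 9.52 in L-E and 10.79 to 11.09 in S-D (adjusted p = 8.44e-07), and *Creg1*, a lysosomal glycoprotein, 9.49 to 10.15 and 11.50 to 11.75 (adjusted p = 3.42e-06), while the other *Creg1* ProbeSet gave 0.34 ± 0.26 and was not called (0.667). In other lists limma called 0 of 34 proteasome subunits, of which 11 had an unadjusted p under 0.05, and 0 of 18 circadian clock genes, of which 1 did. It called 1 of 40 ribosomal proteins.

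The other 3 groups did not lie evenly between L-E and S-D. For each called ProbeSet the mean of H/W, Line-A and Line-C was placed on the way from L-E (0%) towards S-D. Among the 487 ProbeSets lower in L-E, 325 (66.7%) had the other groups nearer to L-E, at a median position of 29.9%. Among the 320 higher in L-E, 141 (44.1%) did, at a median of 54.3%. For expressed ProbeSets that were not called the share was 48.8%. H/W alone, which is not derived from L-E, was nearer to L-E in 352 (72.3%) of the 487 and in 157 (49.1%) of the 320. H/W replicate 1 shared its scan day and lot with L-E replicate 1. Replicates 2 and 3 of H/W shared theirs with L-E replicates 2, 3 and 4, and H/W and L-E had the same operator. S-D was the only group of its scan day and operator. The part of scan day, lot and operator in the position was not tested.

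**Figure D5:**
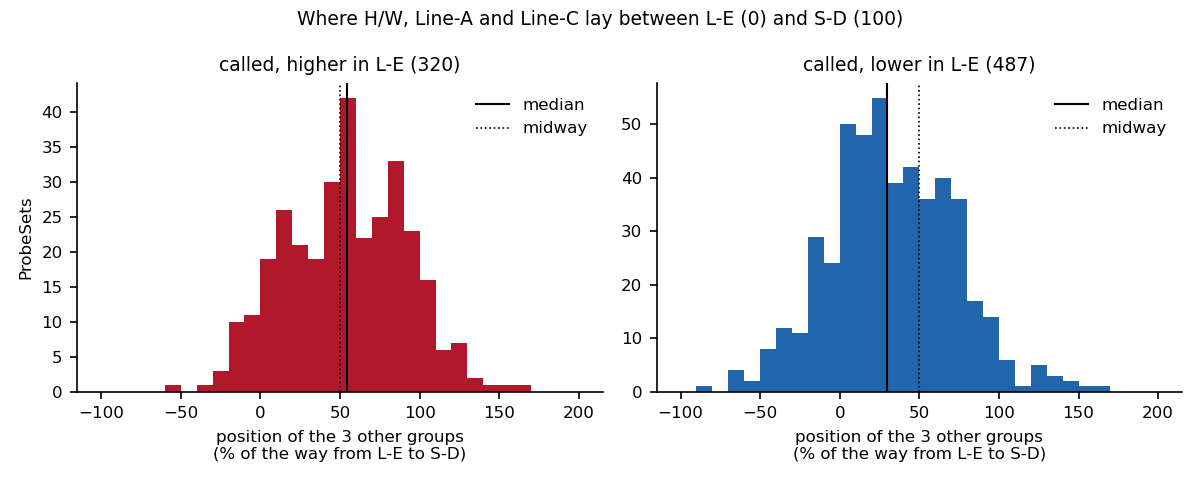
Number of called ProbeSets (y axis) by the position of the mean of H/W, Line-A and Line-C on the way from L-E (0%) to S-D, in percent (x axis), for 320 ProbeSets higher (left) and 487 lower in L-E (right), with the median as a solid line and the midpoint as a dotted line. The median lies at 54.3% for the former and at 29.9% for the latter.

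The 4 rats of the out-bred strain S-D varied less than the 4 of the in-bred strain L-E. Over expressed ProbeSets the median absolute deviation of a rat from its strain mean was 0.093, 0.098, 0.093 and 0.105 in L-E and 0.075, 0.075, 0.075 and 0.069 in S-D. The strains did not overlap (means 0.097 and 0.074, two-sided exact permutation p = 0.0286, the smallest that 4 against 4 rats allow). The 4 deviations of a strain share 1 mean and are not independent, so this p does not measure the evidence that the strains differ in spread. The SD was larger in S-D for 35.9% of expressed ProbeSets, and an SD of at least 1 was seen in 32 ProbeSets in L-E and 18 in S-D. L-E arrays came from 2 scan days and S-D arrays from 1. Without L-E replicate 1, the array of the other day, the means were 0.093 and 0.074, with an exact permutation p = 0.0571, the smallest that 3 against 4 allow. That p has the same limit, and deviations from a mean of 3 rats are not strictly comparable with those from a mean of 4.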

How the data were processed

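Per the labels, total RNA of 20 rat livers was hybridised to RAE230A arrays, and the deposited values are log2 signals that the authors made with GC-RMA (GCRMA 2.10.0 and affy 1.12.0 in R 2.6.1). Replicates were not pooled. No genome build of the probe annotation was given in the sources used here. Values were used without further scaling. A means model for 5 groups was fitted with limma 3.58.1 (R 4.3.3) to all 20 arrays, which share 1 estimate of the spread, and L-E minus S-D was tested two-sided with Benjamini-Hochberg adjustment over 15923 ProbeSets at 1% FDR. The fit was tested on simulated data. Scan day, lot and operator came from the array headers. The number of arrays limits the precision.

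The platform annotation gave 1 symbol for 12789 ProbeSets, several for 312 and none for 2822; 12754 were matched to RefSeq by Entrez ID, 25 by symbol and 10 not. A gene was read from its ProbeSet of highest mean. Named genes were the 15 largest called differences in each direction without overlap (by the ProbeSet of largest difference), up to 5 called members and the fixed anchors of each of 51 lists, genes in runs and single-rat outliers; further ProbeSets of some genes and those without a symbol were picked with their values in view. The comparison and the lists were chosen with earlier results of these data known. Alternatives were another set of arrays, variance prior, array weights, normalization, expression filter, threshold, replicate block, scan day as a random block (statmod 1.5.0) and leaving out each array. Exact permutation tests used scipy 1.17.1.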

Additional observations from a re-analysis of the deposited data

Results flagged for a closer look

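Among 139 ProbeSets of genes described above, 278 sets of 4 rats, 1 in each strain, were examined for 1 rat far from the other 3, and 11 sets were found, 3 in L-E and 8 in S-D. Chance alone flags about 1 in 20 such sets. Over every gene that the rule named, 33 of 636 sets were found, 14 in L-E and 19 in S-D. Among genes called between the strains, S-D replicate 1 stood apart for *RT1-N2* (3.90, others 3.57 to 3.61), S-D replicate 3 for *Hyou1* (10.06, others 9.75 to 9.77), L-E replicate 4 for *Rab14* (3.35, others 4.11 to 4.24) and S-D replicate 2 for *Fdft1* (9.76, others 10.22 to 10.30). S-D replicate 4 stood apart for the brighter *Cpt1a* ProbeSet (10.44, others 10.02 to 10.05) and, under the limit of expression, for *Atf3* (3.32, others 2.94 to 2.95) and *Ppara* (2.11, others 1.90 to 1.91). L-E replicate 4 did so for *Ppara* (1.97, others 1.90). *Ddit3* in L-E replicate 1 (5.76, others 5.23 to 5.29), *Crp* in S-D replicate 1 (13.91, others 13.79 to 13.81) and *Alb* in S-D replicate 3 (16.71, others 16.66) completed the set.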

How the results depend on the processing

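The count of 807 ProbeSets (320 higher and 487 lower in L-E, 576 genes) depended on the settings. None of the 807 changed sign in any fit, but the strains did not overlap in 789 of them. Leaving out 1 rat could not turn the sign of those. Reading each gene from its ProbeSet of smallest p turned the sign of 7 of 295 named genes, none of them called on both ProbeSets. Of these *Ddx6* went from 0.07 to -3.63, *Rab14* from 0.35 to -1.75, *Ghr* from -0.12 to 0.86, *Glul* from -0.05 to 0.62 and *Spink1* from -1.12 to 1.34, all 5 called by the latter ProbeSet. The 8 arrays alone gave 448 ProbeSets (201 and 247) and 301 genes, array weights 1217 ProbeSets (526 higher) and 875 genes, and scan day as a random block 338 ProbeSets (127 and 211) and 245 genes. At 5% FDR there were 1527 ProbeSets (644 and 883) and 1090 genes, at 0.1% FDR 338 (135 and 203) and 246 genes, and at 1% FDR with at least a 2-fold difference 275 (102 and 173) and 182 genes. Leaving out 1 of the 20 arrays gave 571 to 882 ProbeSets (221 to 370 higher and 338 to 512 lower) and 409 to 623 genes, and the lowest count came without L-E replicate 1. The other settings stayed within 1.5 times the count. Of the 30 genes with the largest differences, 20 were called with the 8 arrays and 21 with the random block. Runs of neighbouring called genes numbered 6, or 3 with all measured genes and 35 at 5% FDR. The cause was not tested. With the replicate number as a block 724 ProbeSets (280 and 444) and 525 genes were called, but deviations of same-numbered rats correlated at 0.0518, -0.0284, -0.119 and -0.1321, so the rats share only a number. The difference in spread within strains, S-D minus L-E, was -0.030 to -0.015 with 1 rat left out, and the 3' to 5' ratio differed by 0.26 to 0.29 for GAPDH and 0.19 to 0.27 for β-actin. There p was 0.0571, the smallest that 3 against 4 rats allow, and for the spread it is limited by the shared strain means.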
